A study of Mus musculus with 8 samples.

Results

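Sertoli cells are the supporting cells of the testis cords. They enclose the fetal germ cells, carry on the male pathway through the transcription factors SOX9 and SOX8, and secrete anti-Müllerian hormone (AMH), which makes the female duct regress. They also feed and instruct the germ cells, with KIT ligand as a survival factor and CYP26B1 as the enzyme that removes retinoic acid. A list of 31 genes known from fetal Sertoli cells was read out of a table of 55487 genes by symbol, and all 31 matched 1 row each. No value entered that match.

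The libraries came from total RNA of cells that the labels call purified germ cells, from fetal testes of C57BL/6 mice. All animals carried 2 copies of an Oct4-eGFP reporter (Oct4-eGFP+/+), in which sequences of the germ-cell gene Oct4 drive green fluorescent protein, and the cells were sorted by flow cytometry. The 4 libraries labelled WT were littermate controls with the reporter alone, and the 4 labelled KO were Rhox10-null with the same reporter. Rhox10 is an X-linked homeobox gene of germ cells. The labels give no fetal age, and do not say how the null allele was made or from how many animals each group came, so p-values measure a spread that may be technical.

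Each library held 16346977 to 20311338 counts. Rhox10 had 18, 25, 19 and 17 counts in WT replicates 1 to 4 and 14, 10, 18 and 22 in KO replicates 1 to 4 (log2 ratio, KO over WT, -0.28, edgeR adjusted p = 0.767), so its reads do not check the labels, and all directions here are between labels. The cell type label did not match the most abundant markers. On the length scale (CPM, counts scaled to the library size, per kilobase of merged exons, mean of the libraries labelled WT) Ddx4, the germ-cell helicase gene, stood at 14.8. On the same scale Amh was at 84.5, the steroid enzyme gene Cyp17a1 of Leydig cells at 474 and the collagen gene Col1a1 of stroma at 451. Nanos2, a gene of fetal male germ cells, had 5 to 12 counts per library. The Sertoli genes are therefore described as transcripts in libraries that held RNA of many testis cell types, and fewer cells of a type cannot be told apart from less RNA per cell.

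**Figure D1:**
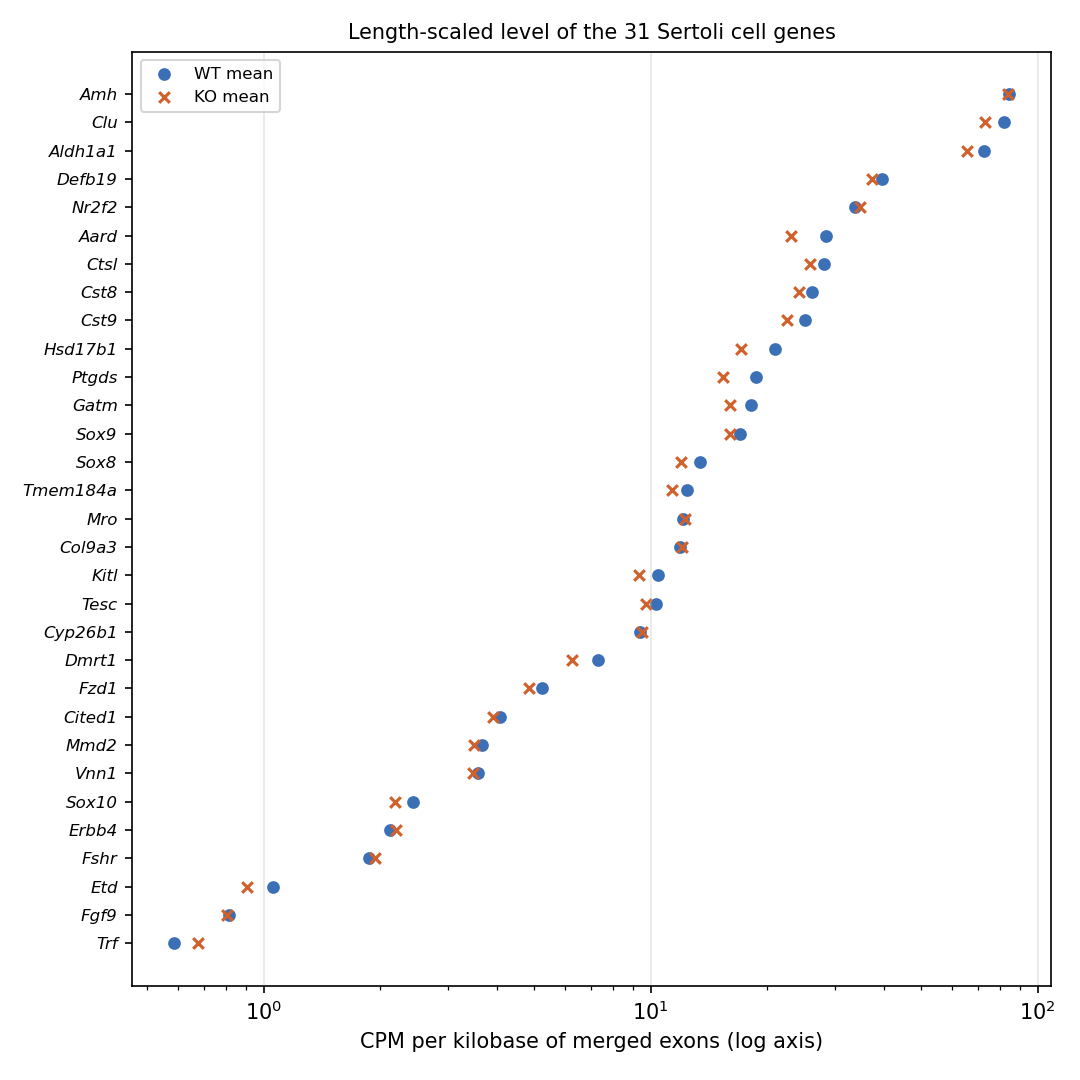
Length-scaled level of the 31 Sertoli cell genes, in CPM per kilobase of merged exons on a log axis, with circles for the mean of the 4 libraries labelled WT and crosses for that of the 4 labelled KO. Amh, Clu and Aldh1a1 lead at 84.5, 81.8 and 72.8 in WT, and Trf, Fgf9 and Etd close the order at 0.586, 0.815 and 1.06.

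The Sertoli genes covered a wide range of levels. Per kilobase, in the libraries labelled WT, Amh, Clu, which encodes the secreted chaperone clusterin, and Aldh1a1, a retinaldehyde dehydrogenase gene, led at 84.5, 81.8 and 72.8 CPM. The beta-defensin gene Defb19 followed at 39.7, then Nr2f2 at 33.7, Aard at 28.3, Ctsl at 28.1 and the cystatin genes Cst8 and Cst9 at 26.2 and 25.1. The regulators Sox9 and Sox8 were at 17.1 and 13.4, and Dmrt1 at 7.29. The FSH receptor gene Fshr, at 1.87, and the growth factor gene Fgf9, at 0.815, were near the bottom of the order. Of the 31, 30 had enough reads to be tested. Etd, an X-linked gene of testis differentiation, was left out with 5 to 13 counts per library. Between libraries of the WT label the coefficient of variation of the 30 tested genes had a median of 5.26%, and between those of the KO label 6.02%.

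The comparison of libraries labelled KO and WT asked whether the Sertoli genes moved with the label. None rose (0 lay above 0 at an unadjusted p under 0.05 in edgeR, and DESeq2 and limma voom also called 0 higher), and 9 of the 30 tested genes fell, each by 8.18 to 18.7%. They were Aard, Ptgds, Hsd17b1, Gatm, Sox8, Kitl, Clu, Aldh1a1 and Ctsl. Over all 23190 genes tested 5.14% were called, 2.80% lower and 2.35% higher with the KO label (649 and 544 genes; 836 and 426 when scaled by library totals). The median log2 ratio (log2 of the fold change, KO over WT) was -0.10 for the 30 genes and 0.002 for all genes tested, and 23 of the 30 lay below 0 against 49.3% of all genes. Under the scalings tried the median of the 30 stayed between -0.12 and -0.09. Values of 9 of the 30 did not overlap between the groups, where 9.44% of all tested genes did not; these were 8 of the called genes and Cst8. The 95% interval of the log2 ratio lay below 0 for 12 genes, spanned 0 for 18 and lay above 0 for 0. For 15 of the 21 genes not called it also held the smallest of the called falls, so falls of that size are within the error of those genes. Adjusted p-values are from edgeR's quasi-likelihood test with Benjamini-Hochberg adjustment over all genes tested, and CPM values are scaled by library composition.

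**Figure D2:**
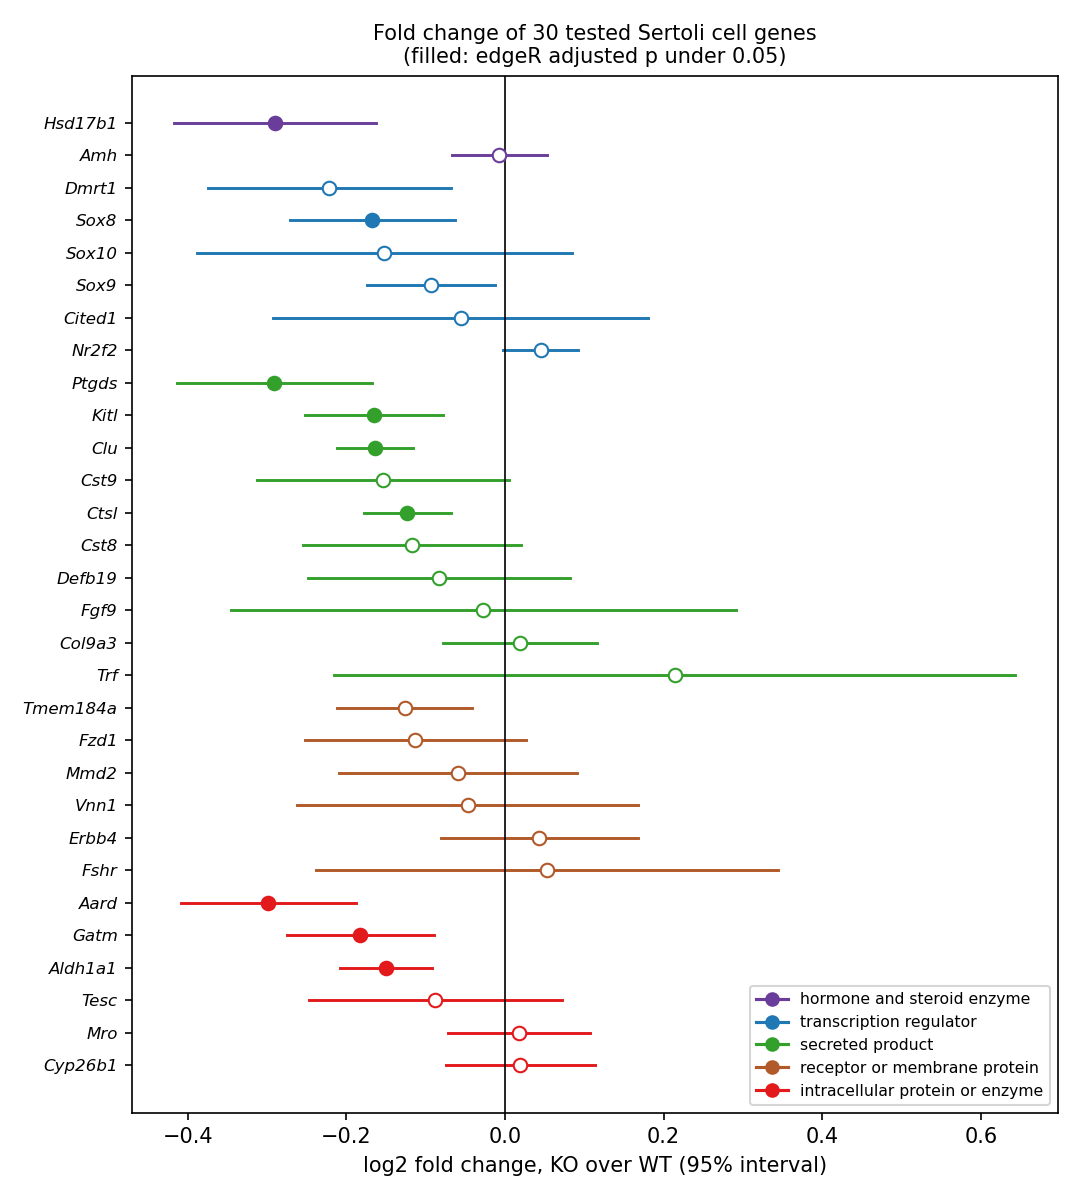
Log2 ratio, KO over WT, of the 30 tested Sertoli cell genes with its 95% interval, coloured by role, with filled circles for edgeR adjusted p under 0.05. The 9 filled circles all lie left of 0, from -0.30 for Aard to -0.12 for Ctsl, while Amh sits at -0.01.

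Of the hormone genes, Amh was not called and the steroid enzyme gene Hsd17b1 fell. Amh stood at 148.0, 137, 139.9 and 140.1 CPM in WT replicates 1 to 4 and at 132, 141, 146 and 143 in KO replicates 1 to 4. The groups overlapped, with the lowest library and the second highest both in KO. The means were 141 ± 4.80 and 140.3 ± 6.14 CPM (SD, n = 4), a log2 ratio of -0.01 (edgeR adjusted p = 0.95), and the 95% interval, -0.07 to 0.05 on the log2 scale, bounds a difference in either direction. Hsd17b1 encodes a hydroxysteroid dehydrogenase of fetal Sertoli cells that makes testosterone from the androgen precursor of Leydig cells. Its values were 27.3, 27.9, 29.2 and 27.6 CPM in WT and 22.5, 25.1, 22.4 and 21.8 in KO, so that every KO library lay below every WT library. It fell by 0.29 on the log2 scale (standard error 0.06, edgeR adjusted p = 0.000671), with an interval of -0.42 to -0.16 that does not meet that of Amh. The difference between the fold changes of these genes was not tested. Hsd17b3, which encodes an enzyme of the same step, was at 64.4 ± 2.31 and 65.5 ± 2.57 CPM (SD, n = 4), a log2 ratio of 0.03 (edgeR adjusted p = 0.854).

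Among the 6 transcription regulators, Sox8 alone passed, and 5 of the 6 lay below 0. Of all genes tested 2.80% were called lower and 49.3% lay below 0. Sox9, the switch gene of the Sertoli fate, had 70.4, 72.8, 67.1 and 71.9 CPM in WT and 64.9, 69.7, 65.0 and 65.2 in KO. The groups overlapped only through KO replicate 2, which stood above WT replicate 3 (log2 ratio -0.09, 95% interval -0.17 to -0.01, edgeR adjusted p = 0.217). Sox8, its partner of the same SOX group, had 40.6, 40.9, 42.4 and 43.6 CPM in WT and 36.9, 41.0, 34.9 and 36.5 in KO. KO replicate 2 was again the high library and reached into the WT range. Sox8 fell by 0.17 on the log2 scale (edgeR adjusted p = 0.0372). That call was lost with DESeq2 (adjusted p = 0.0925), with limma voom (0.0800), with upper-quartile scaling (0.0537), with no filter on low counts (0.0561), and on leaving out WT replicate 3 (0.0911), WT replicate 4 (0.130), KO replicate 1 (0.0732), KO replicate 3 (0.209) and KO replicate 4 (0.107). Exons of Sox8 overlap those of the noncoding gene 2810468N07Rik on the other strand, and whether strand was used in counting is not given in the sources used here.

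Dmrt1, a regulator that both Sertoli and germ cells express, had 19.6, 17.5, 20.3 and 18.2 CPM in WT and 15.5, 16.8, 17.7 and 14.8 in KO. Only KO replicate 3 reached above the lowest WT library. The log2 ratio was -0.22 (edgeR adjusted p = 0.0763), and it was called with library totals (-0.24, adjusted p = 0.0467) and without KO replicate 3 (-0.27, 0.0479). Sox10, better known from the neural crest, averaged 7.42 ± 0.611 and 6.67 ± 0.954 CPM (SD, n = 4; adjusted p = 0.609). The coactivator gene Cited1 averaged 7.16 ± 0.382 and 6.87 ± 0.886 CPM (adjusted p = 0.892). Nr2f2, which encodes the nuclear receptor COUP-TFII and is known chiefly from interstitial cells, was the 1 regulator above 0, at 291 ± 8.01 and 300.4 ± 9.41 CPM, a log2 ratio of 0.04 (adjusted p = 0.356).

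The secreted products held 4 of the 9 falls, from 10 genes, where 2.80% of all genes tested were called lower. Ptgds encodes the synthase of prostaglandin D2, a signal that supports Sox9 in Sertoli cells, and its values were 31.3, 27.7, 35.0 and 29.7 CPM in WT against 27.5, 24.8, 24.6 and 24.2 in KO. The lowest WT library and the highest KO library nearly met. Ptgds fell by 0.29 on the log2 scale (standard error 0.06, edgeR adjusted p = 0.000355). Clu was at 281, 274, 280.1 and 288 CPM in WT and 254, 247, 252 and 251 in KO, groups far apart for their spread, and fell by 0.16 (standard error 0.02, edgeR adjusted p = 2.33e-08), the smallest p among the Sertoli genes. Kitl, the gene of KIT ligand, had 60.5, 62.5, 62.5 and 60.7 CPM in WT and 58.8, 53.8, 53.6 and 53.8 in KO. KO replicate 1 stood apart from the other KO libraries, towards WT. Kitl fell by 0.17 (standard error 0.04, edgeR adjusted p = 0.00799). Its receptor gene Kit, which germ cells express, averaged 35.8 ± 1.55 and 37.2 ± 1.20 CPM (SD, n = 4), a log2 ratio of 0.05 (adjusted p = 0.725).

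Ctsl, which encodes the lysosomal and secreted protease cathepsin L, was at 183, 185, 183 and 179 CPM in WT and 167, 163, 167 and 173 in KO. The groups did not overlap, and it fell by 0.12 (standard error 0.03, edgeR adjusted p = 0.000795), the smallest of the 9 falls. Exons of Ctsl overlap those of the predicted loci Gm47123, on the other strand, and Gm49230, on the same strand. The cystatin genes Cst8 and Cst9 lie 29552 bases apart on chromosome 2. Cst8 averaged 22.3 ± 0.713 and 20.6 ± 0.435 CPM and Cst9 17.2 ± 1.64 and 15.5 ± 0.936 (SD, n = 4; log2 ratios -0.12 and -0.15, edgeR adjusted p = 0.434 and 0.343). The groups of Cst8 did not overlap although it was not called.

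Fgf9, the growth factor gene that sustains Sox9 in the early gonad, had 4.03, 4.11, 3.95 and 3.07 CPM in WT and 3.91, 3.59, 3.36 and 4.05 in KO. The groups overlapped (log2 ratio -0.03, edgeR adjusted p = 0.965), and at this level, 53 to 83 counts per library, the 95% interval ran from -0.35 to 0.29. Defb19, the collagen IX gene Col9a3 and the transferrin gene Trf had log2 ratios of -0.08, 0.02 and 0.21 (edgeR adjusted p = 0.725, 0.912 and 0.728). Trf rested on 29 to 48 counts per library, with an interval of -0.22 to 0.64.

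None of the 6 receptor and membrane protein genes was called by edgeR, a count near the 5.14% called among all genes tested. At an unadjusted p under 0.05 there was 1, Tmem184a, and DESeq2 and limma voom also called 0. Fshr, the receptor gene for follicle-stimulating hormone, had 3.79, 4.56, 4.95 and 4.34 CPM in WT and 4.71, 4.24, 4.46 and 4.92 in KO. The groups lay within each other, with a log2 ratio of 0.05 and an interval of -0.24 to 0.34 (edgeR adjusted p = 0.921). Tmem184a, a membrane protein gene of Sertoli cells, averaged 65.3 ± 2.85 and 59.8 ± 3.90 CPM (SD, n = 4), a log2 ratio of -0.13 (edgeR adjusted p = 0.0634). It was called with library totals (-0.14, adjusted p = 0.0267) and without KO replicate 2 (-0.16, 0.0223). Exons of Tmem184a overlap those of Mafk, on the other strand, and of the predicted locus Gm26938, on the same strand. The neuregulin receptor gene Erbb4, the WNT receptor gene Fzd1, the pantetheinase gene Vnn1 and Mmd2 had log2 ratios between -0.11 and 0.04, and adjusted p from 0.466 to 0.901.

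Of the 6 tested genes of intracellular proteins and enzymes, Aard, Gatm and Aldh1a1 fell, where 2.80% of all genes tested were called lower. Aard, a gene known from fetal testis cords, was at 39.8, 39.5, 35.5 and 37.9 CPM in WT and 30.1, 29.5, 31.7 and 32.7 in KO. The groups were well apart, and its fall of 0.30 on the log2 scale (standard error 0.06, edgeR adjusted p = 2.16e-05) was the largest of the 9. Gatm encodes the enzyme of the opening step of creatine synthesis. It had 56.5, 52.0, 54.0 and 55.3 CPM in WT and 50.01, 47.7, 47.1 and 47.2 in KO, again with no overlap, and fell by 0.18 (standard error 0.05, edgeR adjusted p = 0.00508). Gamt, the gene of the closing step of that synthesis, averaged 7.38 ± 1.20 and 6.61 ± 0.546 CPM (SD, n = 4), a log2 ratio of -0.16 (adjusted p = 0.585).

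The retinoid enzymes differed in their values. Aldh1a1, which makes retinoic acid, was at 354, 348, 348 and 386 CPM in WT and 343, 312, 314 and 327 in KO. WT replicate 4 was the high library, and the groups were close but did not overlap. Aldh1a1 fell by 0.15 (standard error 0.03, edgeR adjusted p = 0.000452), a call lost with library totals (-0.17, adjusted p = 0.0721). Cyp26b1, which degrades retinoic acid, had 53.2, 49.9, 46.1 and 51.6 CPM in WT and 48.1, 48.0, 53.2 and 53.4 in KO. These groups overlapped throughout (log2 ratio 0.02, 95% interval -0.07 to 0.11, edgeR adjusted p = 0.908). Stra8, the meiotic entry gene that retinoic acid induces, averaged 2.26 ± 0.287 and 2.49 ± 0.265 CPM (SD, n = 4; adjusted p = 0.822). Mro, a gene of the male gonad, and Tesc, a calcium-binding protein gene, had log2 ratios of 0.02 and -0.09 (edgeR adjusted p = 0.911 and 0.687).

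**Figure D3:**
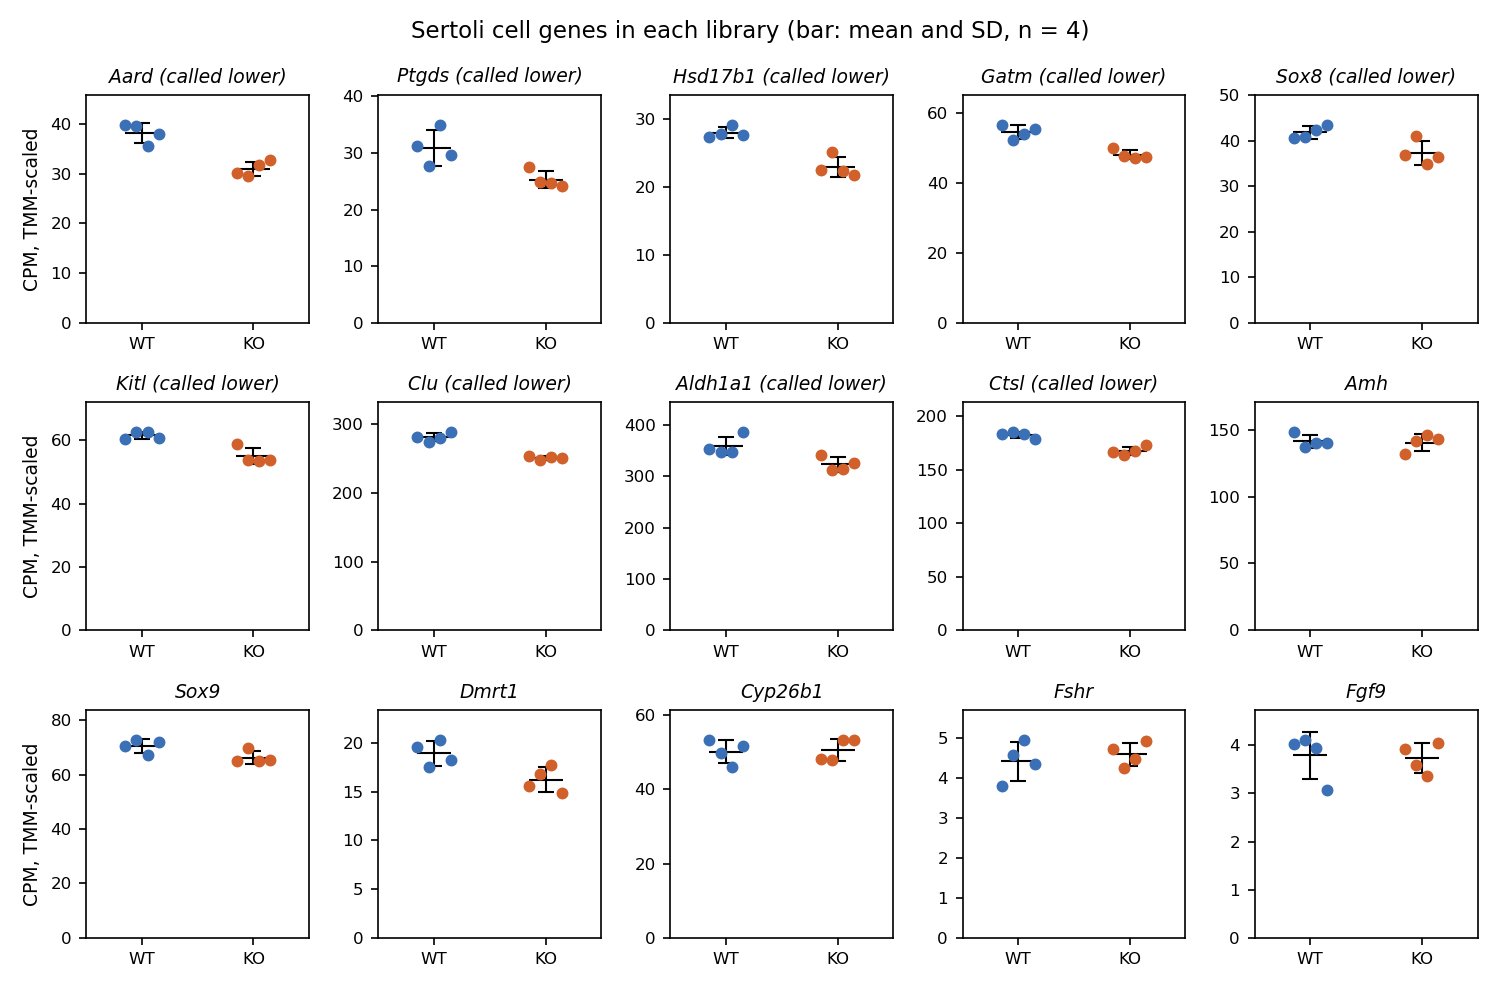
CPM of 15 Sertoli cell genes in each library, with points for libraries and a bar for the mean and SD of the 4 libraries of each label. Panels marked as called lower have edgeR adjusted p under 0.05. In 8 of those 9 panels every KO point lies below every WT point, with Sox8 as the exception, while the points of Amh, Cyp26b1, Fshr and Fgf9 mix.

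The 9 called genes lie on 8 chromosomes, with Ptgds and Gatm both on chromosome 2. In GRCm38, Clu spans chr14:65968483-65981547, Aard chr15:52040107-52045722, Hsd17b1 chr11:101078411-101080527, Sox8 chr17:25565892-25570686 and Kitl chr10:100015630-100100416. To show what stands before the Sertoli genes, the letters upstream of RefSeq starts (GRCm38.p6) were read. Of the 31 genes, 19 had an entry, with 23 windows of 250 bases. The called genes Clu, Aard and Hsd17b1 had no entry, so no motif was searched for them. For 4 called genes the longest stretch of 1 window outside every annotated exon is printed below, 5′ to 3′ on the gene's strand. Searched motifs are in capitals. Aldh1a1 had another window, chr19:20492333-20492582, which lies before the gene's span, is free of exons over all 250 bases and is not printed. Of the stretches printed, only that of Gatm lies before the gene's annotated span. Those of Ptgds, Ctsl and Aldh1a1 lie inside that span, before a RefSeq start within the gene. Those of Sox8 and Kitl are not shown since exons cover most of the window.
Ptgds, chr2:25469843-25469999, minus strand: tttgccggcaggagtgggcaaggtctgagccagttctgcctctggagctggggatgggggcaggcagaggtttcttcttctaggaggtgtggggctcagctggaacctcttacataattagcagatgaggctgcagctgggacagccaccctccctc
Ctsl, chr13:64370521-64370705, minus strand: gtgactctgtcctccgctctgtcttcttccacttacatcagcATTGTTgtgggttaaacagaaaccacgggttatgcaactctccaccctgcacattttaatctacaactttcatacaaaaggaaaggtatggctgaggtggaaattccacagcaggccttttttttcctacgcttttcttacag
Gatm, chr2:122611304-122611527, minus strand: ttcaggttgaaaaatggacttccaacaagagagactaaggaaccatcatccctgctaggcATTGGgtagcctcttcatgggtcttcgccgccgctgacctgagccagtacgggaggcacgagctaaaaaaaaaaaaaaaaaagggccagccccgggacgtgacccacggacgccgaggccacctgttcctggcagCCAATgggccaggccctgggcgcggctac
Aldh1a1, chr19:20601718-20601960, plus strand: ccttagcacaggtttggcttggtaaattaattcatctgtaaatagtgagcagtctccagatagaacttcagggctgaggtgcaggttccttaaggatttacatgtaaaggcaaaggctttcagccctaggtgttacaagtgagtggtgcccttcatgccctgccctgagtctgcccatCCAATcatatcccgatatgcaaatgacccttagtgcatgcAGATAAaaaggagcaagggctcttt

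Searched on both strands of each 250-base window were AACAAT, which SOX factors bind (the SOX motif), AAGGTCA for NR5A1 and AGATAA for GATA factors (the GATA motif), and the core elements TATAA (the TATA motif) and CCAAT. Ctsl held the SOX motif on the other strand, 143 bases before its RefSeq start. Aldh1a1 held the GATA motif 32 bases and CCAAT 72 bases before the start shown, and its other window, which lies before the gene's span, held none of the 5 motifs. Gatm held CCAAT at 190 and 55 bases before its start, the former on the other strand. Ptgds held none of them. Of the 23 windows, 2 had the SOX motif, 2 that of NR5A1, 3 that of GATA factors, 7 that of TATA and 8 that of CCAAT, where 9.43%, 4.08%, 9.99%, 22.8% and 33.8% of all 32817 windows held them. A match of letters is a description and not a site.

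Another 18 genes of Sertoli cells and sex determination, of which 17 were tested, held 3 falls and 0 rises, with a median log2 ratio of -0.02. Among all genes tested 2.80% were called lower and 2.35% higher. Gadd45g, a gene needed for Sry expression in the early gonad, stood at 18.8 ± 1.09 in WT and 13.3 ± 0.912 CPM in KO (SD, n = 4), a log2 ratio of -0.50 (edgeR adjusted p = 4.34e-07). Nr5a1, the gene of steroidogenic factor SF1, which Sertoli and Leydig cells share, was at 248 ± 5.13 and 229 ± 2.93 CPM, a log2 ratio of -0.12 (adjusted p = 0.000345). Inha, which encodes the inhibin alpha subunit, was at 95.4 ± 1.59 and 86.4 ± 2.54 CPM, a log2 ratio of -0.14 (adjusted p = 0.004). The early regulators Wt1 and Gata4 had log2 ratios of 0.04 and -0.03 (edgeR adjusted p = 0.603 and 0.685), and Dhh, the hedgehog ligand gene of Sertoli cells, -0.19 (adjusted p = 0.143). Sry, the male-determining gene, had 0 to 3 counts per library. Among 17 tested genes of receptors and partners, such as the AMH receptor gene Amhr2 (log2 ratio -0.04, adjusted p = 0.89), 1 passed. Erbb3, a neuregulin receptor gene, rose by 0.53 on the log2 scale (edgeR adjusted p = 6.93e-05). A count of 1 in 17 is near the 5.14% called among all genes tested. At an unadjusted p under 0.05 in edgeR, 5 of the 17 were higher and 2 lower.

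**Figure D4:**
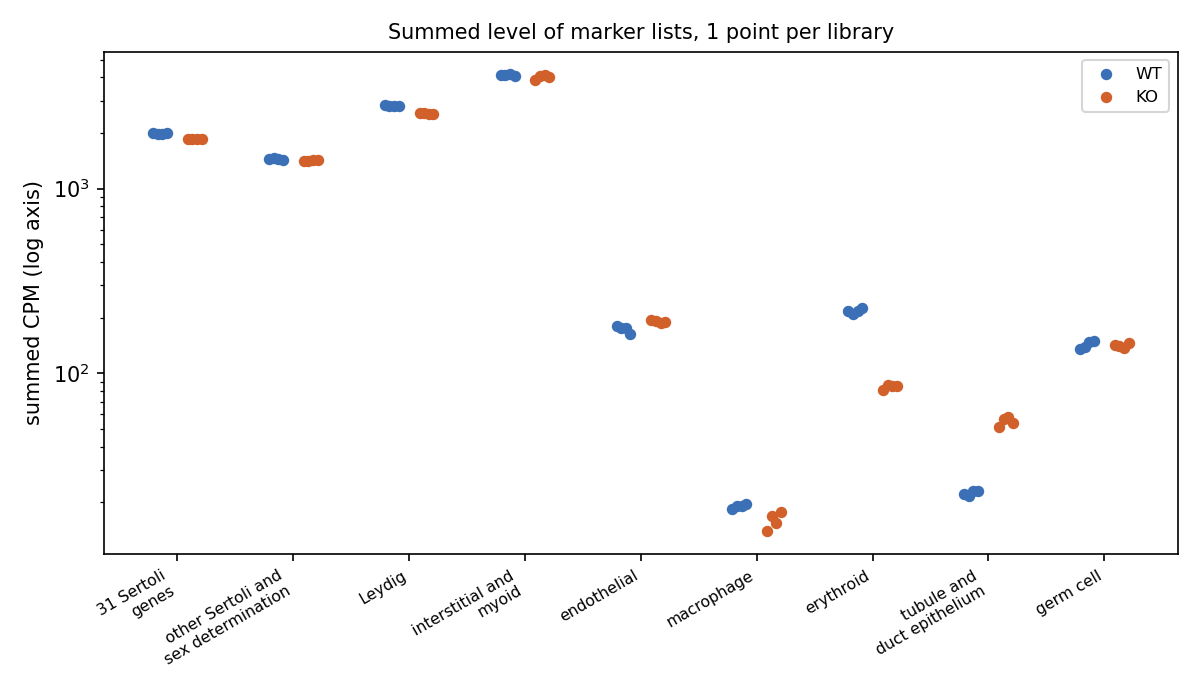
Summed CPM of marker lists in each library on a log axis, with 1 point per library, blue for WT and orange for KO. The 31 Sertoli genes sum to 1972 to 2003 in WT and 1859 to 1863 in KO. Sums of the other Sertoli and sex determination genes and of Leydig, erythroid and macrophage markers are lower in KO. Those of endothelial and of tubule and duct epithelial markers are higher. Sums of interstitial and myoid markers and of germ cell markers overlap. Abundant genes weigh most in each sum.

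Some markers of other cell types also differed between the labels. Their lists were chosen with earlier results of these data known, so the counts called in each list are descriptions. Over all genes tested, edgeR called 2.80% lower and 2.35% higher with the KO label. The summed level of the 31 Sertoli genes ranged from 1972 to 2003 CPM with the WT label and from 1859 to 1863 with the KO label, with 0 of 31 at 0 in every library. Abundant genes weigh most in this sum, such as Aldh1a1 (means 359 and 324 CPM), Clu (281 and 251) and Nr2f2 (291 and 300). Of the 30 tested Sertoli genes 21 were not called. The 5 Leydig markers summed to 2804 to 2835 CPM and 2545 to 2584, and 4 of the 5, all genes of steroid synthesis, fell. Insl3, the other marker, was not called (log2 ratio 0.04, edgeR adjusted p = 0.910). Cyp17a1 and Cyp11a1 fell by 0.14 and 0.15 on the log2 scale (edgeR adjusted p = 7.51e-12 and 2.80e-10), and Star and Hsd3b1 both by 0.12 (1.63e-05 and 1.91e-05). The 5 erythroid markers summed to 209.5 to 225 CPM and 81.3 to 85.9, and 4 of 5 fell. These were globin genes, while Alas2 was not called (log2 ratio -0.23, edgeR adjusted p = 0.0932). Hba-a1 and Hba-a2 had log2 ratios of -1.52 and -1.50 (edgeR adjusted p = 2.62e-85 and 6.06e-83). The ratios of Hbb-bs and Hbb-bt were both -1.51 (1.14e-59 and 2.28e-54), and how reads were split within each pair of near-identical copies is uncertain. The 8 tubule and duct epithelial markers summed to 21.6 to 23.1 CPM and 50.7 to 57.7, and all 8 rose. The 4 with the smallest p were Pkhd1, Epcam, Pax8 and Ehf, with log2 ratios of 2.73, 0.90, 1.09 and 1.55 (edgeR adjusted p = 2.08e-41, 2.14e-16, 2.86e-14 and 4.31e-13). Sums of the 8 interstitial and myoid markers were 4071 to 4161 and 3900.0 to 4106 CPM. The 5 endothelial markers summed to 163 to 180.4 and 186 to 194 CPM, and 2 of 5, the receptor gene Kdr and the adhesion gene Pecam1, rose, with log2 ratios of 0.22 and 0.23 (edgeR adjusted p = 0.000132 and 0.0143). The call of Pecam1 was lost with DESeq2, limma voom and on leaving out WT replicate 2, WT replicate 4, KO replicate 1 or KO replicate 3 (adjusted p = 0.0536 to 0.0952). The 5 macrophage markers summed to 18.4 to 19.6 and 14.0 to 17.6 CPM; 2 were tested and 0 passed (1 had an unadjusted p under 0.05 in edgeR, and DESeq2 and limma voom also called 0). The 9 germ cell markers summed to 134 to 149 and 136 to 146 CPM, and of 8 tested 2 rose and 1 fell. Dazl and Dppa3 had log2 ratios of 0.37 and 0.41 (edgeR adjusted p = 6.24e-05 and 0.00117) and Tdrd1 of -0.43 (3.27e-08). In the lists of granulosa (5 of 7 tested) and Schwann and neural crest markers (3 of 5) edgeR called 0 genes, with 1 and 0 at an unadjusted p under 0.05, and DESeq2 and limma voom also called 0. In the coelomic epithelium list 1 of 4, the keratin gene Krt19, rose by 0.69 on the log2 scale (edgeR adjusted p = 5.55e-05). The part of these cell types in the falls of the Sertoli genes was not tested.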

How the data were processed

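Reads were counted per gene by the authors and deposited as raw counts in 1 table. Per the submitters' processing notes, GRCm38 was the build and STAR 2.5.2b, featureCounts of Subread and DESeq2 were used, in roles and with settings that are not given in the sources used here. The table's gene lengths are in bases, per the file headers, and were taken here as merged exons. Total RNA was made into libraries with a stranded pico-input kit, per the labels' protocols. Symbols came from a reference list of gene names (55141 of 55487 IDs matched). Gene positions were identical to those of GENCODE M21 for 99.35% of the IDs found in both.

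Counts were tested in R 4.3.3 with edgeR 4.0.16: filterByExpr defaults, trimmed mean of M-values (TMM) scaling, robust quasi-likelihood test of 4 KO against 4 WT libraries, two-sided, with a call at p under 0.05 after Benjamini-Hochberg adjustment over the 23190 genes tested. Intervals are 95%. The test was checked on simulated counts. Values are given in full for called Sertoli genes, for Amh, Sox9, Dmrt1, Kitl, Fgf9, Fshr and Cyp26b1, and for the 3 highest per length; other lists give the fold change of called genes, at most 4 a list by smallest p, of which 1 is not reported here. Genes of related function named beside a result (Kit, Gamt, Hsd17b3, Stra8 and the like) come from those lists and were picked after their values were seen. The genes and lists were chosen with earlier results of these data known. Alternatives were other scalings, filters, DESeq2 1.42.0, limma 3.58.1 voom, no robust dispersion, a replicate block and leaving out each library. At 16346977 to 20311338 counts per library the common biological coefficient of variation was 3.86%; libraries of a group differed by more than sampling noise (chi-squared per degree of freedom 1.71 to 4.04).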

Additional observations from a re-analysis of the deposited data

Results flagged for a closer look

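In 6 of 62 groups of 4 libraries, 1 library of a Sertoli gene lay far from the others (its gap exceeded Dixon's 95% limit; chance gives about 1 in 20 groups). KO replicate 2 had 69.7 CPM of Sox9 against 64.9 to 65.2 in the other KO libraries. KO replicate 1 had 58.8 CPM of Kitl against 53.6 to 53.8, and 27.5 of Ptgds against 24.2 to 24.8. WT replicate 4 had 386 CPM of Aldh1a1 against 348 to 354, and 3.07 of Fgf9 against 3.95 to 4.11. WT replicate 1 had 21.2 CPM of Cst8 against 22.6 to 22.7.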

How the results depend on the processing

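Of 510 combinations of a tested Sertoli gene and an alternative, 496 kept their side of the threshold, 10 lost a call (9 for Sox8, 1 for Aldh1a1) and 4 gained one (Dmrt1 and Tmem184a, both lower); the values stand beside these genes, and the cause was not tested. No called Sertoli gene changed sign. Between 8 and 10 of the genes were called lower, 8 or 9 of them among the 9, and 0 higher in every alternative. With DESeq2 794 genes were called in all (374 higher, 420 lower) in place of 1193. The replicate block gave 1249 genes and the same count of 9 Sertoli genes lower. Labels of both groups run from 1 to 4. Deviations of same-numbered libraries correlated at -0.01 to 0.02, and those of other pairs at -0.04 to 0.03. These values show no pairing by number, but a small shared effect could go unseen. The falls of Gadd45g, Nr5a1 and Inha and the rise of Erbb3 were called in all 17 alternatives; Pecam1 lost its call in 6, as given beside it. Depth limits the genes with few counts: Fgf9, Fshr, Trf and Sox10 have intervals wider than the falls that were called.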
